A study of Mus musculus with 18 samples.

Results

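The genes described here are 8 genes known as markers of pulmonary neuroendocrine cells: Calca, Ddc, Chga, Chgb, Syp, Uchl1, Resp18 and Scg5. They were taken by name from a list, with Ensembl identifiers matched to symbols, and 8 of the 8 were among the 15544 genes measured. RNA came from cells of mouse lungs captured on magnetic beads through EpCAM, a surface protein of epithelial cells, from animals 10 to 12 weeks old. The 18 libraries comprised 5 from Falcor-/- mice (replicates 6 to 10), 4 from Foxa2+/- mice (replicates 11 to 14), 4 from mice labelled Double-Het, with the genotype Falcor+/-;Foxa2+/- (replicates 15 to 18), and 5 from wild-type mice (replicates 1 to 5). Foxa2 is a forkhead transcription factor of endoderm-derived epithelia, and Falcor, annotated as 9030622O22Rik, is a long non-coding RNA of the neighbouring gene. The labels name no agent, Cre driver or transgene, and give neither strain nor sex. Each library is labelled as a separate sample, but nothing says how many animals or lungs it holds, so the p-values below measure the spread between these samples.

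Pulmonary neuroendocrine cells are rare airway epithelial cells, found singly or in clusters called neuroepithelial bodies. They sense oxygen, stretch and irritants, and answer by releasing peptides and amines from dense-core granules. Peptide hormones such as calcitonin gene-related peptide (CGRP) are packed with granins, acidic proteins of the granule core, while serotonin is made in the same cells by decarboxylation of 5-hydroxytryptophan. Several of the same genes are also used by neurons and by endocrine tissues outside the lung.

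The members stand on separate chromosomes except for a pair. Calca (ENSMUSG00000030669) lies on chromosome 7, Ddc (ENSMUSG00000020182) on chromosome 11, Chga (ENSMUSG00000021194) on chromosome 12, Syp (ENSMUSG00000031144) on chromosome X, Uchl1 (ENSMUSG00000029223) on chromosome 5 and Resp18 (ENSMUSG00000033061) on chromosome 1. Chgb (ENSMUSG00000027350) and Scg5 (ENSMUSG00000023236) lie on chromosome 2, which also carries Foxa2 and Falcor. Genes on the other strand overlap Ddc (1700042O10Rik), Syp (Gm14703), Uchl1 (Uchl1os) and Resp18 (Gm28902). None of these 4 is among the genes measured, and no label or header states whether counting used strand, so their reads cannot be told apart from those of the members.

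The 250 bases before the start sites are shown for Ddc and Chga, the members whose levels rose in Falcor-/- lungs, and for Chgb and Scg5, which share a short motif with Chga. RefSeq lists a pair of starts for Ddc, and the sequences are RefSeq's on GRCm38.p6, read 5′ to 3′ on the strand of the gene. They lie at chr11:11898145-11898394 and chr11:11890409-11890658 (Ddc, minus strand), chr12:102554691-102554940 (Chga, plus), chr2:132781392-132781641 (Chgb, plus) and chr2:113829092-113829341 (Scg5, minus). Capitals mark matches to any of 5 motifs searched on both strands, some of them chosen after the sequences were seen.

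Ddc start 1: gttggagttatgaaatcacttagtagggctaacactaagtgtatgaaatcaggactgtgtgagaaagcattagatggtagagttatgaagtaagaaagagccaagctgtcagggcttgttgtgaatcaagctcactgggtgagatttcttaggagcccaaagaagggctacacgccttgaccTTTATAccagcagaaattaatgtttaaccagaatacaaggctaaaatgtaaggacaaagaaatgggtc
Ddc start 2: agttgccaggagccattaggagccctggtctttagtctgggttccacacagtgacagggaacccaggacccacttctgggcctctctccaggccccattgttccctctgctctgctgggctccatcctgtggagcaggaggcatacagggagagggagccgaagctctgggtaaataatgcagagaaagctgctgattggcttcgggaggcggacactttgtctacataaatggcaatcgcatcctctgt
Chga: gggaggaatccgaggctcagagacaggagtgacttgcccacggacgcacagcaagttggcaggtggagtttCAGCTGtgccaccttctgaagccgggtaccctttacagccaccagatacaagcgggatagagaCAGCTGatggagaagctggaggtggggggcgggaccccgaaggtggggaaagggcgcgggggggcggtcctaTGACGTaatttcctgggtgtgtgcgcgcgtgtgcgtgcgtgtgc
Chgb: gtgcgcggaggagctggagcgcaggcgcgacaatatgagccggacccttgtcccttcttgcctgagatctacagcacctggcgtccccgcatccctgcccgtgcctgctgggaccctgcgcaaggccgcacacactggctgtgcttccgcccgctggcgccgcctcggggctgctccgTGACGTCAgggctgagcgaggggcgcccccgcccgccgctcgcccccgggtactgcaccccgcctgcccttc
Scg5: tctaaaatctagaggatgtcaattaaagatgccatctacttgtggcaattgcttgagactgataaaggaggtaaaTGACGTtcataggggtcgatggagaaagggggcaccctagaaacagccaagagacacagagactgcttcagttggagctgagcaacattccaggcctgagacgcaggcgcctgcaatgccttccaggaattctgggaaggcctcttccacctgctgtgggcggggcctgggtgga

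TGACGT, the core of the cAMP response element, was found before Chga at position -44, before Chgb at -72 and before Scg5 at -175, counted from the start site. It was present in 3 of the 8 members and in 6.47% of 32851 mouse promoter windows of the same length. The palindrome TGACGTCA, which contains it, was found before Chgb alone among the members, and in 1.55% of all windows. CAGCTG, an E-box with a GC core, occurred before Chga at -179 and -116 and before Resp18 at -73, against 13.0% of all windows. TATAAA was found on the minus strand at -68 of the first Ddc start, against 12.4% of windows. TGTTTAC, a forkhead motif, matched in 0 of the 8 members and in 3.17% of windows. Forkhead sites written with other letters were not searched. The letters TATTTAC, for example, stand on the other strand before the second Ddc start and are not marked. A match describes letters in this window and shows no binding.

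The levels are log2 values that the authors normalized so that every library has nearly the same distribution, and sequencing depth cannot be read from them. On this scale the members' means over 18 libraries lay between 6.54 for Chga and 9.36 for Calca, below the median of 11.08 over all tested genes. Their spread within a genotype had an SD of 0.344 (Ddc) to 0.617 (Calca), against a median of 0.209 over all tested genes. The members were not compared with genes of a like level, so whether their spread was unusual cannot be said. In these bulk libraries, fewer cells of a type and less RNA per cell cannot be told apart. The genotype labels were checked first. Falcor averaged 6.20 ± 0.68 in Falcor-/-, 11.70 ± 0.21 in Foxa2+/-, 11.66 ± 0.15 in Double-Het and 10.18 ± 0.48 in wild type. The Double-Het libraries did not have less Falcor than the Foxa2+/- libraries (difference -0.04, 95% interval -0.68 to 0.60). Foxa2 averaged 12.74 ± 0.23 in Falcor-/-, 12.39 ± 0.05 in Foxa2+/-, 12.36 ± 0.19 in Double-Het and 12.97 ± 0.08 in wild type (SD, n = 5, 4, 4 and 5 libraries).

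**Figure D1:**
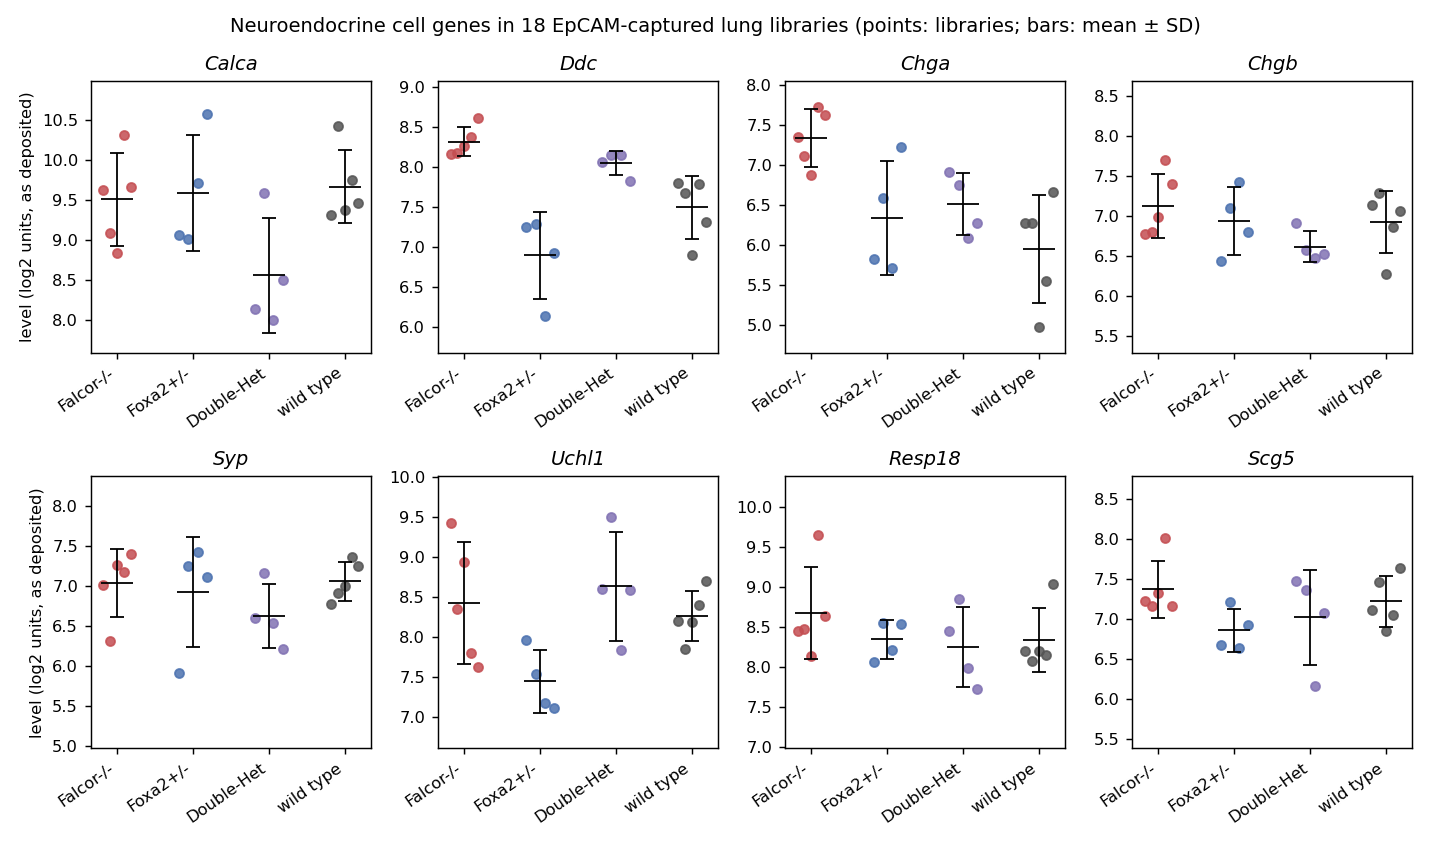
Log2 level of each of the 8 neuroendocrine genes in every library, by genotype, with 1 point per library and black bars for the genotype mean and SD. For Ddc and Chga the 5 Falcor-/- libraries lie above the 5 wild-type libraries, as for 4.22% of all tested genes. The other 6 genes overlap between these genotypes.

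In Falcor-/- lungs 2 of the 8 neuroendocrine genes rose relative to wild type and 0 fell. The genes that rose were Ddc and Chga, by 1.77-fold and 2.62-fold. Across all 15249 genes tested, 9.47% changed in this comparison, with 5.23% higher. No member passed the test in Foxa2+/- lungs, where 6.11% of all genes changed, or in Double-Het lungs, where 14.8% did. With 8 genes such counts of 0 lie near those backgrounds. At an unadjusted limma p under 0.05, 2 of the 8 members differed in Foxa2+/- (Ddc and Uchl1), where 19.2% of all genes did, and 2 in Double-Het (Calca and Ddc), where 29.8% did. Those shares of members are near the shares of all genes. The median difference from wild type over the 8 members was 0.18 in Falcor-/-, -0.10 in Foxa2+/- and -0.14 in Double-Het, beside all-gene medians of 0.03, 0.04 and 0.07. The 3 comparisons share the same wild-type libraries. Over all 4 genotypes, limma's F test called Ddc (adjusted p = 0.00192) and Chga (adjusted p = 0.0333), where it called 23.2% of all genes.

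**Figure D2:**
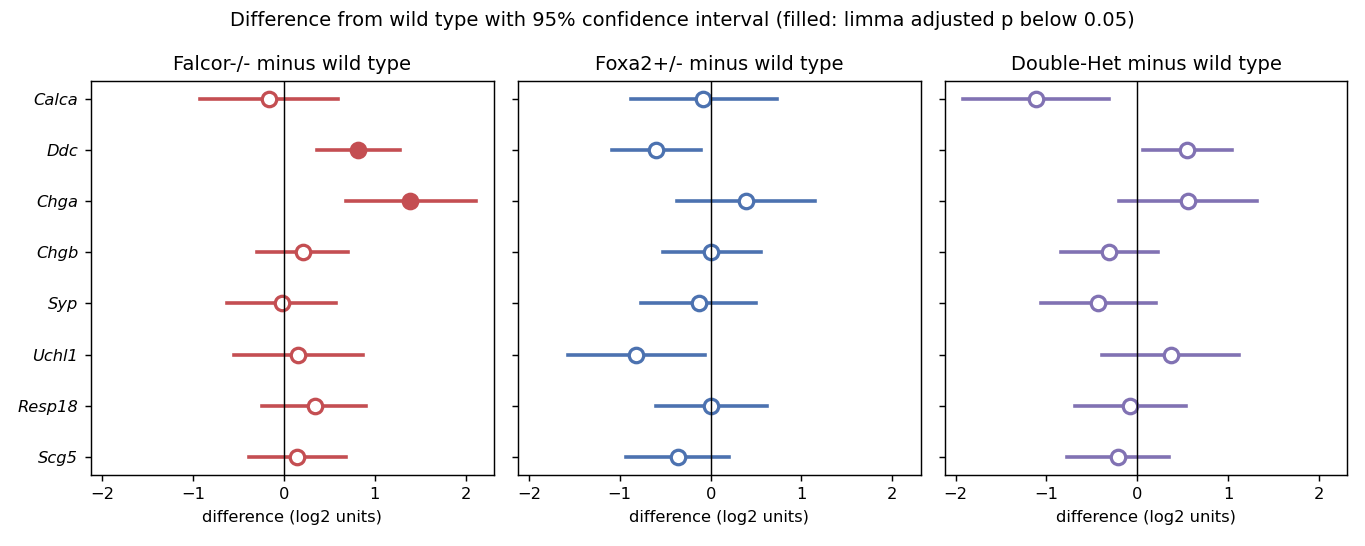
Difference in log2 level of each neuroendocrine gene from wild type in each mutant genotype, with its 95% interval from the linear model. Filled points passed the limma test. In Falcor-/- minus wild type, the intervals of Ddc (0.36 to 1.28) and Chga (0.68 to 2.11) lie above 0.

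Ddc encodes aromatic L-amino acid decarboxylase, which makes serotonin and dopamine from their precursors. In Falcor-/- its log2 level was 8.16, 8.17, 8.26, 8.37 and 8.61. Foxa2+/- libraries had 7.24, 7.28, 6.13 and 6.92, and Double-Het libraries had 8.06, 8.15, 8.15 and 7.82. Wild-type libraries had 7.80, 7.67, 6.90, 7.78 and 7.31. The Falcor-/- and the Double-Het libraries all stood above every wild-type library, and the Foxa2+/- libraries spread below and into the wild-type range. The lowest single value, 6.13, was in Foxa2+/- replicate 13. Means were 8.31 ± 0.18 in Falcor-/-, 6.89 ± 0.54 in Foxa2+/-, 8.04 ± 0.15 in Double-Het and 7.49 ± 0.39 in wild type (SD, n = 5, 4, 4 and 5). From high to low the order was Falcor-/-, Double-Het, wild type, Foxa2+/-. No neighbours in that order differed past the threshold, with limma adjusted p of 0.532 for Double-Het against Falcor-/-, 0.12 for Double-Het against wild type and 0.153 for Foxa2+/- against wild type.

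The Double-Het libraries all lay below the Falcor-/- libraries (exact p = 0.0397), as did 4.05% of all genes, and 5.15% of all genes passed the limma test there, with 0 members called. At an unadjusted limma p under 0.05, 2 members (Calca and Chga) and 21.2% of all genes differed between these 2 genotypes.

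Genotypes farther apart in that order did differ. Ddc was higher in Falcor-/- than in wild type by 0.82 (SE 0.22, 95% interval 0.36 to 1.28, limma adjusted p = 0.0319). The exact permutation test gave p = 0.00794, the smallest that 252 regroupings allow, and 5 of 5 Falcor-/- libraries were above the wild-type mean. Of all tested genes, 4.22% were likewise higher in Falcor-/- without overlap. The limma call was lost in the fit of these 2 genotypes alone (adjusted p = 0.0505). It was also lost without Falcor-/- replicate 8 (0.0615), 9 (0.0682) or 10 (0.0582) and without wild-type replicate 1 (0.0534), 2 (0.0602) or 3 (0.0548), while the difference stayed between 0.67 and 0.90 over all 10 omissions.

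The widest gap in Ddc was between Falcor-/- and Foxa2+/- lungs. It was 1.42 log2 units, or 2.68-fold (SE 0.23, 95% interval 0.93 to 1.91, limma adjusted p = 0.0025), with no overlap between the libraries, as for 6.86% of all genes that were higher. This call held in each of 9 leave-one-out fits, with an adjusted p of 0.00183 to 0.00883. In this comparison 16.7% of all genes passed the test, and Ddc was the 1 member that did. Double-Het libraries also had more Ddc than Foxa2+/- libraries, by 1.15 (SE 0.24, 95% interval 0.64 to 1.67, limma adjusted p = 0.022), and again without overlap, which 6.54% of all genes also showed. The exact p of 0.0286 is the smallest that 4 against 4 libraries can give. Only 2.43% of all genes passed between these 2 genotypes, and Ddc was again the 1 member called. That call was lost in the fit of the 2 genotypes alone (adjusted p = 0.0694) and without Foxa2+/- replicate 13 (0.0705) or Double-Het replicate 15 (0.0553), 16 (0.0643) or 17 (0.0602). Against wild type, Double-Het libraries were higher by 0.55 (95% interval 0.06 to 1.04, exact p = 0.0317), which did not pass after adjustment. Of all genes, 8.61% were higher in Double-Het than in wild type without overlap. Ddc in Foxa2+/- was 0.60 below wild type in log2 level, a difference of -0.60 (95% interval -1.09 to -0.11, limma adjusted p = 0.153). It passed when libraries were centred on 14 pan-epithelial genes (-0.77, adjusted p = 0.0409).

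Chga encodes chromogranin A, a granin of the dense core and the precursor of several peptides. Its log2 level was 7.35, 7.11, 6.87, 7.72 and 7.63 in Falcor-/-. Levels in Foxa2+/- were 5.82, 6.59, 5.71 and 7.22, and those in Double-Het were 6.91, 6.75, 6.09 and 6.28. Wild type had 6.28, 6.27, 4.98, 5.55 and 6.66. Each Falcor-/- library was above each wild-type library, as for 4.22% of all tested genes. Wild-type replicate 3 was the lowest of all 18. Foxa2+/- replicate 14 (7.22) and Double-Het replicate 15 (6.91) lay within the Falcor-/- range. Double-Het replicates 15 and 16 were above every wild-type library, and replicates 17 and 18 lay within the wild-type range. The difference between Falcor-/- and wild type was 1.39 (SE 0.34, 95% interval 0.68 to 2.11, limma adjusted p = 0.0244, exact permutation p = 0.00794). The call was lost without wild-type replicate 4 (1.29, adjusted p = 0.0518) or Falcor-/- replicate 9 (1.29, adjusted p = 0.0587).

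In the other mutants the Chga means were 6.34 ± 0.71 (Foxa2+/-) and 6.51 ± 0.39 (Double-Het), against 5.95 ± 0.67 in wild type, and neither difference passed (limma adjusted p = 0.636 and 0.311). Falcor-/- libraries were higher than Foxa2+/- libraries by 1.0 (95% interval 0.24 to 1.76, limma adjusted p = 0.061). That value passed without Falcor-/- replicate 7 (1.06, adjusted p = 0.0483), without Foxa2+/- replicate 14 (1.30, adjusted p = 0.0386) and when values below 6 were raised to 6 (0.88, adjusted p = 0.0338). Double-Het libraries were 0.83 lower than Falcor-/- libraries, with a difference of -0.83 (95% interval -1.59 to -0.07, limma adjusted p = 0.193). The mean of Chga lies near the minimum of 6 set for testing, and the number of reads behind such a level is unknown.

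Calca encodes calcitonin and, by alternative splicing, the peptide CGRP, the best-known peptide of neuroepithelial bodies. Gene-level values do not separate the 2 products. Calca was 9.63, 9.09, 8.84, 10.32 and 9.67 in Falcor-/- and 9.06, 9.02, 9.71 and 10.58 in Foxa2+/-. Double-Het libraries had 8.14, 9.59, 8.0 and 8.50, and wild-type libraries had 9.32, 10.43, 9.38, 9.75 and 9.46. Of the Double-Het libraries, 3 lay below every wild-type library, and replicate 16 lay within the wild-type range. The Double-Het mean was 8.56 ± 0.72, against 9.67 ± 0.46 in wild type, a difference of -1.11 (SE 0.38, 95% interval -1.92 to -0.31). It missed the threshold (limma adjusted p = 0.0596), with an exact permutation p of 0.0397 and 4 of 4 libraries below the wild-type mean. It passed with library weights (-1.15, adjusted p = 0.0366), with centring on pan-epithelial genes (-1.41, adjusted p = 0.0104) and without replicate 16 (-1.46, adjusted p = 0.0214). Falcor-/- and Foxa2+/- differed from wild type by -0.16 (95% interval -0.92 to 0.60) and -0.08 (95% interval -0.88 to 0.73).

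The remaining granule genes did not pass in any of the 6 comparisons. Chgb, chromogranin B, another granin, ranged from 6.78 to 7.70 in Falcor-/-, 6.44 to 7.43 in Foxa2+/-, 6.48 to 6.91 in Double-Het and 6.28 to 7.29 in wild type. Scg5, the 7B2 chaperone of prohormone convertase 2, had a difference from wild type of 0.15 in Falcor-/- (95% interval -0.38 to 0.68), -0.36 in Foxa2+/- (-0.93 to 0.20) and -0.21 in Double-Het (-0.77 to 0.35). Resp18, a granule protein of endocrine cells, differed from wild type by 0.34 (95% interval -0.24 to 0.91), 0.01 (-0.60 to 0.62) and -0.08 (-0.69 to 0.53) in the same order. Falcor-/- replicate 9 was the highest of all 18 libraries for Chgb (7.70), Scg5 (8.01), Resp18 (9.64) and Chga (7.72).

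Syp encodes synaptophysin, a membrane protein of small clear vesicles. It ranged from 6.31 to 7.40 in Falcor-/-, 5.92 to 7.43 in Foxa2+/-, 6.21 to 7.17 in Double-Het and 6.78 to 7.36 in wild type. All 4 ranges overlapped, and the differences from wild type were -0.02 (95% interval -0.62 to 0.57), -0.13 (-0.76 to 0.50) and -0.43 (-1.06 to 0.20) in that order of mutants. Uchl1 encodes a ubiquitin C-terminal hydrolase that is abundant in neurons as well as in neuroendocrine cells. Its level was 9.43, 8.35, 8.94, 7.80 and 7.63 in Falcor-/- and 7.97, 7.54, 7.18 and 7.12 in Foxa2+/-. It was 8.60, 9.51, 7.84 and 8.59 in Double-Het and 8.20, 7.85, 8.19, 8.40 and 8.70 in wild type. Of the 4 Foxa2+/- libraries, 3 were below every wild-type library, and replicate 11 lay within that range. Foxa2+/- was lower than wild type by a difference of -0.82 (SE 0.36, 95% interval -1.57 to -0.06, exact permutation p = 0.0238), which did not pass (limma adjusted p = 0.216). Against Foxa2+/-, Uchl1 was higher by 1.18 in Double-Het (limma adjusted p = 0.107) and by 0.98 in Falcor-/- (limma adjusted p = 0.0652). Both passed with library weights, at 1.34 (adjusted p = 0.0196) and 0.94 (adjusted p = 0.0453). Of 7 related ubiquitin genes, 0 passed in Falcor-/-, 0 passed in Foxa2+/- and 1 fell in Double-Het, which was the hydrolase Bap1 (-0.18, adjusted p = 0.037). The Bap1 call was lost without replicate 2, 4, 5, 15 or 16 (adjusted p up to 0.143), without the intensity trend (0.0509) and in the 2-genotype fit (0.0941).

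The members were then compared with each other over the 18 libraries. Of 28 pairs, 23 had a positive Pearson r, with a median of 0.37, and 21 did after each genotype's mean was subtracted, with a median of 0.29. No pair passed adjustment over the 28, while 11 had an unadjusted permutation p under 0.05. The pair with the highest r was Resp18 and Scg5 (r = 0.69, permutation p = 0.00212, adjusted p = 0.0594; rho = 0.56, permutation p = 0.0169, adjusted p = 0.0948). Without the 2 libraries farthest from the Resp18 median, wild-type replicate 5 and Falcor-/- replicate 9, r was 0.40. For Chga and Resp18, r was 0.62 (permutation p = 0.00569, adjusted p = 0.0797) and rho 0.64 (permutation p = 0.00477, adjusted p = 0.0668), with 0.55 without the 2 farthest and 0.61 after subtraction. Ddc and Chga had r = 0.60 (permutation p = 0.00884, adjusted p = 0.0825) and rho = 0.68 (permutation p = 0.00261, adjusted p = 0.0668), with 0.42 in both of those checks. Uchl1 had r between -0.37 (Chgb) and 0.49 (Ddc) with the other members, and -0.04 with Ddc after subtraction.

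**Figure D3:**
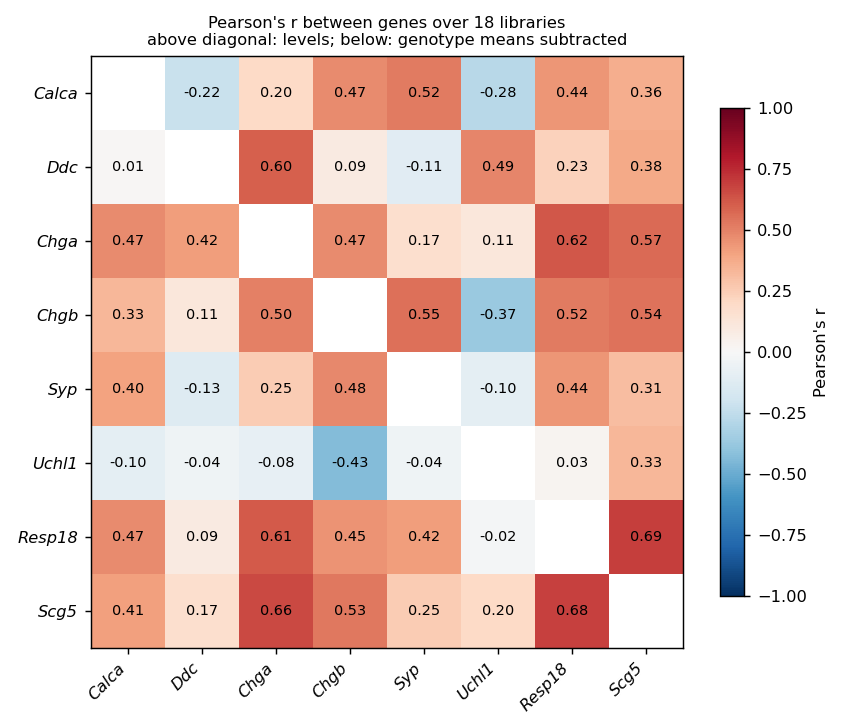
Pearson r between each pair of the 8 genes over 18 libraries, with the levels as deposited above the diagonal and with each genotype's mean subtracted below it. Values are positive in 23 and 21 of 28 pairs, and the Uchl1 pairs lie between -0.37 and 0.49 in the levels as deposited.

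None of the 3 genes most like each member was itself a member. By Pearson r over 18 libraries, as a description chosen from all tested genes, Chga was closest to Lars (0.87), Prelid3b (0.86) and Rpsa (0.85). Ddc was closest to Mthfd1l (0.84), Sec62 (0.83) and Dusp14 (0.83), and Calca to Angptl4 (0.79), Ecm1 (0.76) and Tmem119 (0.75). Chgb was closest to Brf2 (0.82), Syp to Kcnn1 (0.76), Uchl1 to Ss18 (0.81), Resp18 to Ntpcr (0.83) and Scg5 to mt-Nd6 (0.81). The members' own nearest members were farther, from 0.49 (Uchl1 with Ddc) to 0.69 (Resp18 with Scg5). Libraries share their genotype and their normalization, so these values are no test.

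Other genes of the neuroendocrine programme were taken from lists by role. Of 6 transcription factors of these cells, 2 were among the genes tested, and 1 passed against wild type. That was Hes6, a Hes-family regulator, which rose in Falcor-/- by 0.58 (SE 0.15, limma adjusted p = 0.0275). Its level was 13.22, 12.55, 13.19, 13.14 and 13.01 in Falcor-/-, against 12.33, 12.39, 12.43, 12.33 and 12.74 in wild type. Falcor-/- replicate 7 fell within the wild-type range and the other 4 lay above it. The call was lost in 6 of the 10 leave-one-out fits (replicates 1, 2, 4, 6, 8 and 9, adjusted p up to 0.0722). Insm1, a zinc-finger factor of neuroendocrine cells, did not pass in any comparison with wild type, with a difference of 0.34 in Falcor-/-, 0.10 in Foxa2+/- and 0.15 in Double-Het. In wild type Hes6 averaged 12.44, against 7.02 for Insm1 and 9.67 for Calca, the highest member. Which cells the Hes6 RNA came from was not tested. Of 15 genes for granule cargo and processing, 6 were tested and 0 passed against wild type in any genotype, with medians of 0.00, 0.18 and -0.18.

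Regulated exocytosis had 9 of its 13 genes tested. Against wild type, 0 passed in Falcor-/-, 0 passed in Foxa2+/-, and 1 rose in Double-Het. Rims2, an active-zone scaffold, rose in Double-Het by 1.19 (SE 0.32, adjusted p = 0.0188), and passed neither without replicate 17 (1.10, adjusted p = 0.0506) nor with centring (0.89, adjusted p = 0.0569). Its mean was 7.26 in Double-Het and 6.06 in wild type, near the minimum of 6 set for testing. Of 11 monoamine and GABA genes, 8 were tested. Slc18a1, a vesicular monoamine transporter, rose in Double-Het by 0.86 (SE 0.23, adjusted p = 0.0172), and passed neither without replicate 15 (0.82, adjusted p = 0.0549) nor with centring (0.56, adjusted p = 0.0937). Maoa, which breaks down serotonin, fell in Foxa2+/- by 0.38 (adjusted p = 0.0285), and Maob, a related oxidase, rose in Double-Het by 0.34 (adjusted p = 0.035). The Maoa call was lost without replicate 1, 2, 4, 5, 13 or 14 (adjusted p up to 0.103) and in the 2-genotype fit (0.0558). The Maob call was lost without replicate 1, 4, 5, 15, 16 or 18 (adjusted p up to 0.108) and with centring, where the difference was 0.04.

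**Figure D4:**
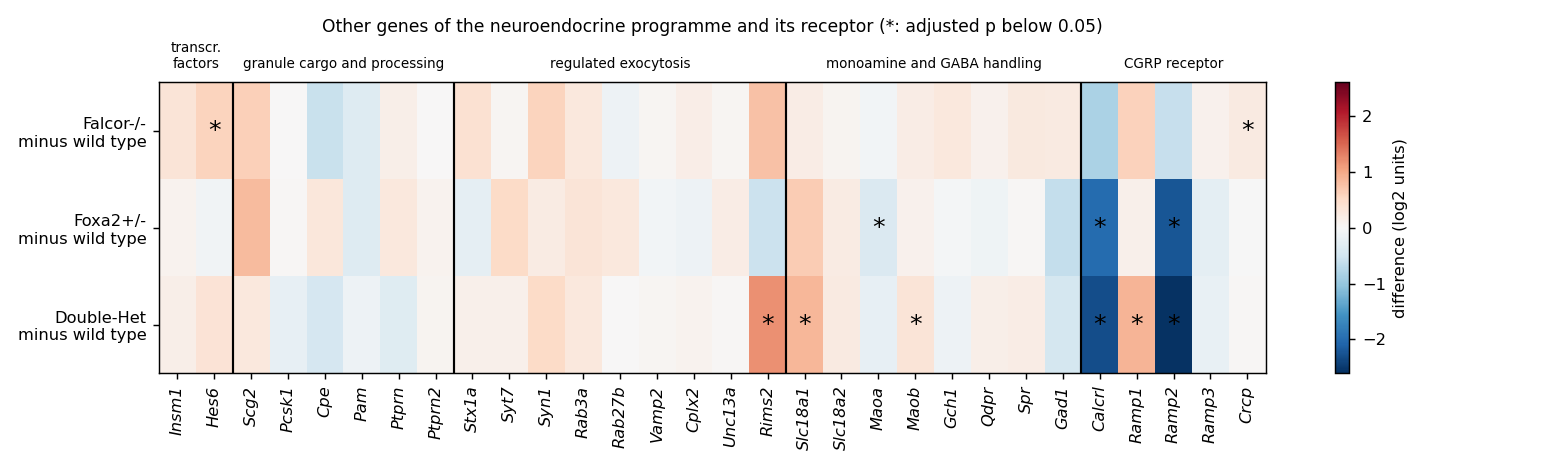
Difference from wild type in log2 level for other genes of the neuroendocrine programme and of the CGRP receptor and related receptors, in Falcor-/-, Foxa2+/- and Double-Het lungs. Asterisks mark a limma adjusted p below 0.05, and the strongest shades are the falls of Ramp2 (-2.23 in Foxa2+/- and -2.57 in Double-Het) and Calcrl (-2.01 and -2.30).

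All 5 genes listed for the CGRP receptor, the partner of the Calca peptide, and for related receptors were measured. Calcrl, the receptor subunit, fell by 2.01 in Foxa2+/- (SE 0.34, adjusted p = 0.00142) and fell by 2.30 in Double-Het (SE 0.34, adjusted p = 0.000228). Ramp2, whose pairing with Calcrl gives an adrenomedullin receptor, fell by 2.23 (SE 0.37, adjusted p = 0.00119) and fell by 2.57 (SE 0.37, adjusted p = 0.000186). Those 4 calls held in all alternatives run. Endothelial genes moved with them: 8 of 10 markers were called lower in Foxa2+/- and 8 in Double-Het, with Pecam1 at 11.52 to 12.07 and 10.95 to 11.78, against 12.84 to 14.43 in wild type. Calcrl and Ramp2 are also endothelial genes, and the part of those cells in their fall was not tested. Ramp1, which forms the CGRP receptor with Calcrl, rose in Double-Het by 0.88 (SE 0.26, adjusted p = 0.0333), a call lost without replicate 1, 2, 5, 15, 16 or 18 (adjusted p up to 0.114), in the 2-genotype fit (0.0562) and with centring (0.0901). In Falcor-/- lungs 1 of the 5 passed, which was Crcp, a component of the receptor complex (0.24, adjusted p = 0.0247). It was lost without replicate 1, 2, 4, 8 or 9 (adjusted p up to 0.0645), in the 2-genotype fit (0.0695) and with centring (0.01, adjusted p = 0.94).

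RNA of other cell types differed between the libraries beside these results. Epcam, the protein used for capture, had a log2 level of 13.75 to 14.48 over the 18 libraries. Ptprc, a leucocyte gene, ran from 13.80 to 14.57. The macrophage list had 6 of 10 genes lower in Falcor-/-, 0 in Foxa2+/- and 6 in Double-Het, and its summed log2 level ran from 14.26 to 16.59 in Falcor-/-, 16.19 to 16.71 in Foxa2+/-, 14.44 to 16.26 in Double-Het and 16.07 to 16.76 in wild type. C1qa, a complement gene of macrophages singled out after its values were seen, was at 8.92, 13.15, 9.78, 13.73 and 9.83 in Falcor-/- replicates 6 to 10, and at 9.58 to 10.49 in Double-Het. Foxa2+/- had 13.17 to 14.10 and wild type 13.08 to 13.97. Some other genes of the macrophage list followed C1qa within Falcor-/-, and some did not. C1qb, C1qc, Csf1r and Msr1 were higher in replicates 7 and 9 than in the other replicates, as C1qa was. C1qb was at 8.46, 12.53, 9.27, 13.36 and 8.88 in replicates 6 to 10. Adgre1, Mrc1, Marco, Chil3 and Cd68 did not split this way. Marco, Chil3 and Cd68 averaged 10.11, 14.02 and 12.59 in Falcor-/-, against 9.45, 13.71 and 12.52 in wild type. Falcor-/- replicate 6, the lowest in C1qa, had the highest Marco of all 18 libraries (12.57). Its summed macrophage level, 16.29, lay within the wild-type range. Falcor-/- replicate 7, with C1qa at 13.15, had a summed level of 15.95, below that range. The sum is led by abundant genes, with Chil3 at 15.25 in replicate 6. The mean log2 level of the same list was 11.13 in replicate 6 and 12.06 in replicate 7. Wild-type libraries had 12.09 to 12.87 by that mean. Ddc ran from 8.16 to 8.61 over the 5 Falcor-/- libraries, with 8.17 and 8.37 in the 2 that had C1qa at the wild-type level. Chga was 7.11 and 7.72 in those 2 libraries. Between the other genotypes low C1qa went with high Ddc. The 4 Double-Het libraries, all low in C1qa, had Ddc at 7.82 to 8.15, above every wild-type library. The 4 Foxa2+/- libraries, all high in C1qa, had Ddc at 6.13 to 7.28. Genotype and C1qa cannot be told apart in that contrast. Within wild type, replicate 3 had the lowest C1qa (13.08) and the lowest Ddc (6.90). Replicate 1 had the highest of both (13.97 and 7.80). Replicates 2, 4 and 5 had C1qa at 13.18, 13.35 and 13.92, and Ddc at 7.67, 7.78 and 7.31. The part of macrophage RNA in these differences was not tested.

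**Figure D5:**
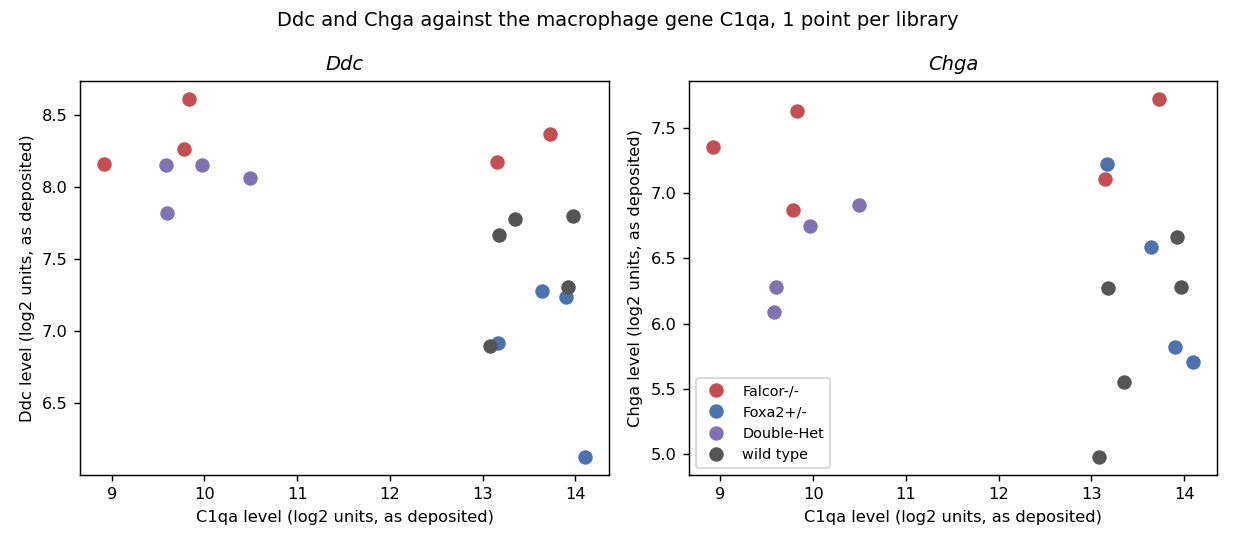
Log2 level of Ddc (left) and Chga (right) against that of the macrophage gene C1qa, with 1 point per library and colour for genotype. C1qa did not follow the summed macrophage level in every library. In Falcor-/- replicate 6, low in C1qa, the mean log2 level of the macrophage list was 11.13, below every wild-type library. Falcor-/- libraries with C1qa near 9 or 10 and those above 13 have Ddc between 8.16 and 8.61, and the Double-Het libraries, all with C1qa of at most 10.49, have Ddc between 7.82 and 8.15.

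Markers of the endothelium and mesenchyme also moved. Endothelial genes had 0 of 10 called lower in Falcor-/-, with a median difference from wild type of -0.60, against 0.03 over all genes. Their summed level was 15.45 to 17.01 in Falcor-/-, against 15.69 to 17.11 in wild type. Mesenchymal genes had 2 of 10 lower in Falcor-/-, 5 in Foxa2+/- and 8 in Double-Het. Neurons and glia could share members such as Uchl1 and Syp, and of 13 such genes 6 were measured. Their summed level ran from 11.02 to 11.75 in Falcor-/-, 10.61 to 10.93 in Foxa2+/-, 10.81 to 11.03 in Double-Het and 11.25 to 11.68 in wild type. Map2, a neuronal microtubule protein found in other cells too, fell by 1.16 in Foxa2+/- (adjusted p = 0.0107) and fell by 1.18 in Double-Het (adjusted p = 0.00521). Pan-epithelial genes had 4 of 14 higher in Falcor-/-, 2 in Foxa2+/- and 4 in Double-Het. Their mean was above wild type by 0.23, 0.17 and 0.30 in that order, so centring on them lowers each difference from wild type by that amount. After centring, Falcor-/- exceeded wild type by 0.59 in Ddc (adjusted p = 0.0486) and by 1.16 in Chga (adjusted p = 0.0205). Alveolar type 2 and ciliated genes had 0 called in any comparison with wild type, and club cell genes had 2 of 7 higher in Double-Het and 0 in the other mutants. Between mutants, where Ddc differed most, other lists moved too. In Falcor-/- against Foxa2+/-, 5 of 8 ciliated genes, 7 of 10 endothelial, 4 of 10 mesenchymal and 2 of 6 neuronal and glial genes were higher, and 6 of 10 macrophage genes and 1 of 10 alveolar type 2 genes were lower. In Double-Het against Foxa2+/-, 1 of 8 ciliated genes was higher and 5 of 10 macrophage genes were lower. The median summed log2 level of the ciliated genes was 16.92 in Falcor-/-, 16.50 in Foxa2+/-, 16.80 in Double-Het and 16.84 in wild type. The part of the other lists in the members' differences was not tested.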

How the data were processed

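Bead-captured EpCAM+ lung cells gave 1 table per library. STAR, limma and the mm9 build are named in the submitters' processing notes; for the counter, annotation, filter, strand and versions nothing is stated in the labels or headers. The deposited values are log2 levels, quantile normalized by the authors: over the top 90% of ranks, libraries differ by at most 0.0512 at a rank. Depth is unknown, and only differences relative to other genes of a library can be seen. Symbols came from GENCODE vM21 for 14994 of 15544 identifiers.

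Genes with a mean of at least 6 were tested (15249, with 295 left out, and 8 of 8 members kept). limma 3.58.1 in R 4.3.3 fitted 1 mean per genotype to all 18 libraries and moderated the spread with an intensity trend (degrees of freedom: 14 residual, 17 total). P-values are 2-sided, adjusted by Benjamini-Hochberg over all tested genes, and called below 0.05. Exact permutation tests compared means, and pair correlations used 100000 resamples. Differences are first-named minus second genotype, with 95% intervals. Scripts were tested on simulated data. Members, lists and tests were chosen with earlier results of these data known. All members were named, with up to 3 called genes per list and comparison and the 3 most similar genes per member. Alternatives were no filter, no trend, 2-genotype fits, library weights, values below 6 raised to 6, centring on pan-epithelial genes and leaving out each library. The same alternatives for the other named genes were added after seeing the data, as was the C1qa plot, first drawn with the macrophage sum. Some genes of the companion lists are not reported here, and the list counts leave them out.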

Additional observations from a re-analysis of the deposited data

Results flagged for a closer look

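The 8 genes in 4 genotypes made 32 groups, each examined for 1 library far from the others by Dixon's criterion, and 2 stood out; chance alone flags about 1 in 20 groups. Resp18 in wild-type replicate 5 was at 9.03, with a gap to the next library of 0.866 of the group's range (critical value 0.71). Scg5 in Falcor-/- replicate 9 was at 8.01, with a gap of 0.81 of the range (critical value 0.71).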

How the results depend on the processing

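No paired analysis was possible because each replicate number, 1 to 18, stands for 1 library and none is shared between genotypes. Members called went to 1 in Falcor-/- against wild type and to 0 in Double-Het against Foxa2+/- in 2-genotype fits. With library weights they were 1 in Double-Het against wild type, 2 in Falcor-/- against Foxa2+/- and 2 in Double-Het against Foxa2+/-. With centring they were 1 in Foxa2+/- and 1 in Double-Het against wild type, and with values below 6 raised, 2 in Falcor-/- against Foxa2+/-, with 2 member pairs past the threshold against 0. Leaving out 1 library gave 0 to 2 members in Falcor-/- against wild type, 0 to 1 in Double-Het against wild type, 1 to 2 in Falcor-/- against Foxa2+/-, 0 to 1 in Double-Het against Foxa2+/- and 1 to 3 over any genotype. All genes called in Falcor-/- against wild type numbered 1444, with 483 in the 2-genotype fit, 3446 with weights, 4506 with centring and 354 (without replicate 1) to 3926 (without replicate 7) when 1 library was left out. In Foxa2+/- they numbered 932, with 1947 with weights, 1589 with centring and 556 to 1118 without 1 library. In Double-Het they numbered 2254, with 4939 with weights, 5115 with centring and 1342 to 2435 without 1 library. The cause was not tested.

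Differences that missed the threshold changed sign in some fits. Against wild type in Falcor-/-, centring gave -0.02 for Chgb, -0.07 for Uchl1 and -0.08 for Scg5, and weights gave 0.11 for Syp. In Foxa2+/-, Chgb was -0.05 with weights and -0.16 with centring, and Resp18 was -0.16 with centring. Resp18 with weights was 0.15 in Double-Het against wild type and 0.03 against Foxa2+/-. Without 1 library, Falcor-/- against wild type ran from -0.37 to 0.03 for Calca, -0.11 to 0.16 for Syp, -0.09 to 0.36 for Uchl1 and -0.01 to 0.26 for Scg5. Foxa2+/- ran from -0.41 to 0.12 for Calca, -0.15 to 0.18 for Chgb, -0.30 to 0.21 for Syp and -0.06 to 0.18 for Resp18. Double-Het ran from -0.28 to 0.10 for Resp18 and -0.36 to 0.08 for Scg5. Against Foxa2+/-, Falcor-/- ran from -0.29 to 0.24 for Calca and -0.23 to 0.29 for Syp, and Double-Het from -0.04 to 0.47 for Chga and -0.29 to 0.09 for Resp18. Double-Het against Falcor-/- ran from -0.09 to 0.47 for Uchl1. Ddc and Chga kept a positive difference between Falcor-/- and wild type in every alternative run. Depth is unknown, so the precision of low levels cannot be given.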
